A study of Mus musculus with 21 samples.

Results

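Transcripts of 10 genes that macrophages in general express, including the 3 that encode the chains of complement C1q, were followed in the gastrocnemius muscle of mice that trained, stopped training or never trained. The genes are Csf1r, Adgre1, C1qa, C1qb, C1qc, Fcgr3, Fcer1g, Tyrobp, Cd68 and Aif1. They were chosen by name, and each matched 1 of the 40853 genes of the deposited count table. All 10 were among the 16129 genes that passed the filter on low counts and were tested. The RNA came from the whole medial gastrocnemius belly, and 1 poly(A) library was sequenced for each of 21 C57BL/6NJ mice, all female and 10 weeks old when the groups began. The 7 mice of the Inactive group stayed in standard cages for 6 weeks, the 7 mice of the Active group ran on a treadmill for 6 weeks, and the 7 mice of the Activity Reduction group ran for 4 weeks and were then inactive for 2 weeks. Training took place on 5 days a week for up to 40 min, warm-up included, at about 70% of maximal speed, and all mice, untrained ones included, ran a last maximal test before tissue was taken after a short fast. A library held between 38482455 and 59785132 reads assigned to genes, with a median of 53278181 in the Inactive, 46532461 in the Active and 49829192 in the Activity Reduction group.

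Macrophages are the resident phagocytes of muscle, where they lie in the connective tissue between fibers, clear debris and take part in repair and remodeling. Their survival depends on signals through the CSF1 receptor, and they are the main source of C1q, the recognition molecule of the classical complement pathway. Much of what they sense through Fc receptors and related receptors is passed on by small adaptor proteins that carry an immunoreceptor tyrosine-based activation motif (ITAM).

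The samples were muscle by their transcripts, with Myh4, the fast myosin heavy chain, at a mean of 4003000 normalized counts (counts divided by a size factor for each library's depth). The 10 macrophage transcripts together made up between 9.71 and 36.7 CPM of a library (counts for every 1000000 assigned to genes), so they describe a minor cell population in bulk tissue. In such samples, fewer macrophages and less RNA per macrophage cannot be told apart. Erythrocyte genes summed to between 41.7 and 100.4 CPM. Ly6g, which defines mouse neutrophils, had 0 reads in every library (a count of 0 allows up to 0.0502 CPM in the deepest and 0.078 CPM in the shallowest library), and none of the 7 genes listed for natural killer cells passed the filter on low counts. The libraries also differed in liver transcripts. Alb, which encodes albumin, reached between 365 and 1155 CPM in 8 libraries (Active replicates 1 to 5, Activity Reduction replicates 1 and 2, and Inactive replicate 1) and between 71.1 and 161 CPM in the other 13. Because 5 of the 8 were Active libraries, results are also given for the 13 libraries with Alb under 250 CPM and with this division as a covariate. The 8 are also the first 8 of the series in the order of its sample labels. The division cannot be told apart from that order, and what the order stands for is not given in the sources used here.

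The 3 genes of C1q lie side by side on the minus strand of chromosome 4 in GRCm39, C1qb at chr4:136606009-136613511, C1qc at chr4:136616466-136620376 and C1qa at chr4:136623223-136626161, with 2954 bp between the first pair and 2846 bp between the second. Adgre1 (chr17:57665573-57790527, plus strand) and Aif1 (chr17:35387384-35395053, minus strand) are on chromosome 17, Fcgr3 (chr1:170878738-170893549) and Fcer1g (chr1:171057141-171062219) are close together on the minus strand of chromosome 1, Cd68 (chr11:69555037-69557067, minus strand) is on chromosome 11 and Tyrobp (chr7:30113170-30117010, plus strand) is on chromosome 7. All are annotated as protein coding in GENCODE, as is Csf1r, which is described further on.

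The promoters of the C1q genes and of the ITAM adaptor Fcer1g are shown as examples. These 4 transcripts varied together between mice, as did the others apart from Csf1r and Aif1, as described below. Fcgr3 had Pearson's r of 0.867, 0.773 and 0.809 with C1qa, C1qb and C1qc, above the 0.741, 0.699 and 0.651 of Fcer1g. Each sequence is the 250 bases before the start of the gene's canonical transcript in GRCm39, read 5′ to 3′ on the gene's own strand, from chr4:136626162-136626411 (minus strand) for C1qa, chr4:136613512-136613761 (minus) for C1qb, chr4:136620377-136620626 (minus) for C1qc and chr1:171062220-171062469 (minus) for Fcer1g. Capitals mark GAGGAA, the core bound by PU.1 and other ETS factors, or its reverse complement TTCCTC.
C1qa promoter: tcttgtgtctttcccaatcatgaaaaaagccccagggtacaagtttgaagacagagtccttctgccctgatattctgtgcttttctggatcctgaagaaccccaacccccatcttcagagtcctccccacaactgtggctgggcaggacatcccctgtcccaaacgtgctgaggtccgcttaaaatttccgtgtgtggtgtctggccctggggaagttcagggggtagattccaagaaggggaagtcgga
C1qb promoter: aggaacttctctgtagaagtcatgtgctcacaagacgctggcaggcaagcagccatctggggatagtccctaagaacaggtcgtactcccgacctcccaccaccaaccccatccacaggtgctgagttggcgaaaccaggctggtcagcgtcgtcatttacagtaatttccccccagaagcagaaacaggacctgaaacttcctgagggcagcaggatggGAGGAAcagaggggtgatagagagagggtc
C1qc promoter: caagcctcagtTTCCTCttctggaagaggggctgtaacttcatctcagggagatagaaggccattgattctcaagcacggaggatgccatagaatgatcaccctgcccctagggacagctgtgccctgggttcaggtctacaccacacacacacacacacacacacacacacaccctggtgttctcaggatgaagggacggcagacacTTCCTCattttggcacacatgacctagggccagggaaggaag
Fcer1g promoter: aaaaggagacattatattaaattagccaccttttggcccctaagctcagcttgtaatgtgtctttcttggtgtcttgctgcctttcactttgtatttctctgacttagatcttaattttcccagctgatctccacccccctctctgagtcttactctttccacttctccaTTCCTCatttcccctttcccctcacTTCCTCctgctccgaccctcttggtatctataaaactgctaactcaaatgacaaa
On either strand, 22.9% of 21757 protein-coding promoters hold GAGGAA in this window. It was present once in C1qb, at 2 places in C1qc and Fcer1g, and also in Adgre1, Cd68 and Csf1r, but its letters were not in the windows of C1qa, Fcgr3 and Aif1. TGCTGAC (reverse complement GTCAGCA), the core of the elements bound by MAF factors, which shares no overlap with the first motif, was found in 3.24% of promoters and in the window of none of the 9 genes just named. These matches describe letters in the windows and show no binding.

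Per kilobase of canonical transcript, the C1q transcripts were among the most abundant of the 10. C1qa, the A chain, had a mean of 204 normalized counts per kilobase over the 21 libraries, C1qc 109, Cd68, a glycoprotein of the macrophage lysosome, 88.3, and C1qb 73.2. Tyrobp, the adaptor DAP12, had 69.4, Fcer1g, the common γ chain of Fc receptors, 51.2, Csf1r, the receptor for CSF1 and IL-34, 37.2, Fcgr3, an activating receptor for IgG, 32.8, Adgre1, which encodes F4/80, 14.9, and Aif1, the calcium-binding protein IBA1, 2.75 normalized counts per kilobase. C1qa exceeded C1qc in 21 of 21 libraries, and likewise Fcgr3 exceeded Adgre1 and Adgre1 exceeded Aif1 in all 21. Neighbors in the middle of this order changed places between mice: Cd68 exceeded C1qb in 11 libraries, C1qb exceeded Tyrobp in 14, Csf1r exceeded Fcgr3 in 14, Tyrobp exceeded Fcer1g in 15, C1qc exceeded Cd68 in 16 and Fcer1g exceeded Csf1r in 18 of the 21. Transcript lengths include long 3′ ends that may not be used in muscle, so the order depends on the annotation. Aif1 had few reads, between 0 and 24 per library with a median of 8.

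Csf1r, which lies on chromosome 18, was the 1 transcript of the 10 whose groups differed at an unadjusted p-value under 0.05. The lowest, median and highest normalized counts were 159, 198 and 254 in the Inactive group, 167, 312.4 and 407 in the Active group, and 99.7, 185 and 227 in the Activity Reduction group. Replicates 3, 4, 5 and 7 of the Active group lay above every Inactive library, and 6 of the 7 Active libraries lay above every Activity Reduction library. Active replicate 6, at 167, lay among the other groups, so the groups overlapped. Means were 294 ± 79.0 in the Active, 204 ± 31.1 in the Inactive and 176 ± 43.2 in the Activity Reduction group (SD, n = 7 each). The log2 fold change was 0.53 in the Active against the Inactive group (standard error 0.174, unadjusted p = 0.00544, adjusted p = 0.297, from edgeR's quasi-likelihood test after Benjamini-Hochberg adjustment for all genes tested), and an Active library exceeded an Inactive one in 41 of the 49 possible pairs (two-sided exact permutation test, p = 0.0181). In the Activity Reduction against the Active group it was -0.74 (standard error 0.175, unadjusted p = 0.000333, adjusted p = 0.105, edgeR), with the Activity Reduction library higher in 5 of 49 pairs (two-sided exact permutation test, p = 0.00583, where the smallest possible is 0.000583). Between the Activity Reduction and Inactive groups it was -0.21 (standard error 0.175, unadjusted p = 0.251, adjusted p = 0.846, edgeR). The same 7 Active libraries enter both of the first 2 comparisons, so these are not independent of each other.

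The call for Csf1r depended on the tool. DESeq2's Wald test on the 3 groups gave an adjusted p-value of 0.00658 in the Activity Reduction against the Active group, past the threshold, where 0.408% of genes were, and 0.116 in the Active against the Inactive group, where 0.199% were. Between the Activity Reduction and Inactive groups, where 0.0802% of genes passed, DESeq2's filter gave none of the 10 an adjusted p-value, so they were not assessed at this threshold. With the Alb division as a covariate in edgeR the log2 fold changes were 0.47 (unadjusted p = 0.0277, adjusted p = 0.514) and -0.69 (unadjusted p = 0.00154, adjusted p = 0.195). In the 13 libraries with Alb under 250 CPM, the 2 Active libraries had 167 and 318.2, 1 inside and 1 above the range of the 6 Inactive libraries (159 to 254). The log2 ratio of the means there was 0.25 for Active against Inactive and -0.42 for Activity Reduction (5 libraries) against Active. Exons of Csf1r share 19.8% of their length with Hmgxb3 on the opposite strand, and whether reads were counted by strand is not given in the sources used here. Hmgxb3 itself had log2 fold changes of -0.06, -0.02 and 0.04 in the Active against the Inactive, the Activity Reduction against the Inactive and the Activity Reduction against the Active group.

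**Figure D1:**
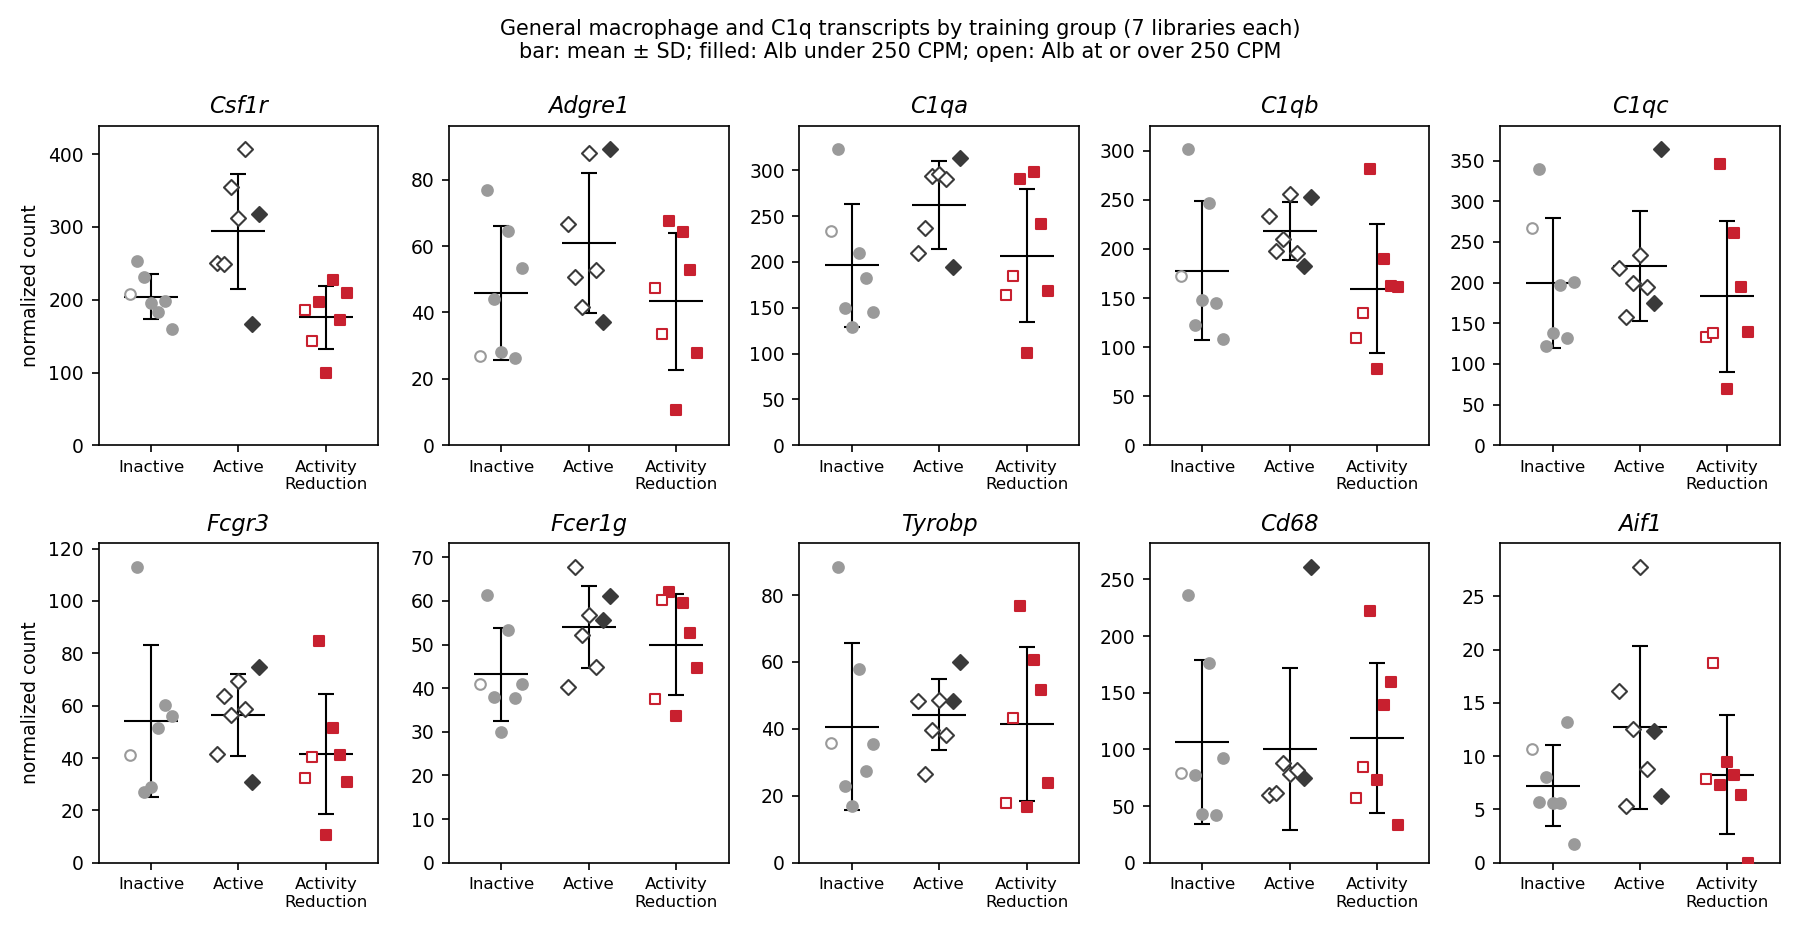
Normalized counts (y axis, linear, from 0) of the 10 transcripts in each of the 7 libraries of the Inactive (circles), Active (diamonds) and Activity Reduction (squares) groups, with bars for mean ± SD, and with open symbols for the 8 libraries with Alb at or over 250 CPM. For Csf1r most Active libraries sit above the other groups, with Active replicate 6 at 167 among them. The groups of the other transcripts overlap too, and their spread within groups differs between transcripts.

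Over the 10 transcripts, 0 passed the threshold for differential expression (adjusted p under 0.05 and a log2 fold change over 0.25 in either direction) in the Active against the Inactive group, where 0% of all genes tested did. At an unadjusted p-value under 0.05, 1 of the 10 differed, against 10.9% of all genes, so the count was close to the background (6.18% of all genes were higher and 4.69% lower). The log2 fold change was above 0 for 9 of the 10, against 51.6% of all genes, and its median was 0.31, against 0.0052. Between the Activity Reduction and Active groups 0 of the 10 passed (0% of all genes), 1 differed at an unadjusted p-value under 0.05 (13.3% of all genes, with 6.89% higher and 6.44% lower), 9 of the 10 were below 0 (all genes: 49.8% above 0) and the median was -0.39, against -0.0006 for all genes. Leaving out 1 library moved that median between -0.55 (without Activity Reduction replicate 3) and -0.25 (without Activity Reduction replicate 4), with 8 to 10 of the 10 below 0, and the median of the Active against the Inactive group between 0.26 and 0.46, with 7 to 10 above 0. In the Activity Reduction against the Inactive group 0 of the 10 passed (0.0124% of all genes), 0 differed at an unadjusted p-value under 0.05 (7.73% of all genes, with 4.19% higher and 3.54% lower), 5 were above 0 (52.2% of all genes) and the median was -0.02, a value that turned with single libraries, from -0.22 with 2 above 0 (without Activity Reduction replicate 3) to 0.12 with 8 above 0 (without Inactive replicate 2). With the Alb division as a covariate 1, 0 and 2 of the 10 differed at an unadjusted p-value under 0.05 in the Active against the Inactive, the Activity Reduction against the Inactive (where 0.0062% of all genes passed the threshold) and the Activity Reduction against the Active group, where 8.51%, 8.25% and 10.7% of all genes did. In the 13 libraries with Alb under 250 CPM 0 of the 10 did in any comparison, against 6.07%, 7.89% and 4.41% of the genes tested there, and with DESeq2 on the 3 groups 2, 0 and 2 did, against 7.13%, 4.88% and 8.27%. In each comparison the groups overlapped for all 10, as they did for all but 0.254%, 0.118% and 0.291% of genes tested in the same order.

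The number of transcripts past an unadjusted p-value of 0.05 moved with single libraries. In the Active against the Inactive group it was 4 without Inactive replicate 2 (Csf1r, C1qa, C1qb and Fcer1g), where 1569 of 16257 genes tested passed. It was 3 without Active replicate 1 (Csf1r, C1qa and Fcer1g), where 1440 of 16266 genes passed. It was 2 (Csf1r and C1qa) without Inactive replicate 1 (2329 of 16258 genes), Active replicate 6 (1930 of 16282) or Activity Reduction replicate 4 (1764 of 16274). In the Activity Reduction against the Active group it was 3 without Activity Reduction replicate 3 (Csf1r, C1qb and Fcgr3), where 2122 of 16267 genes passed. It was 2 without Inactive replicate 2 (Csf1r and C1qb), where 2028 of 16257 genes passed. The adjusted p-values of the transcripts named, in these fits, were between 0.109 and 0.561 (edgeR).

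C1q is assembled from the products of C1qa, C1qb and C1qc, and its binding to antibody or to dying cells starts the classical pathway. C1qa had 129, 182 and 322.7 normalized counts as lowest, median and highest in the Inactive group, 195, 291 and 313.04 in the Active group and 101, 185 and 298 in the Activity Reduction group. Inactive replicate 2 was above every Active library, and 38 of the 49 pairs were higher in the Active library. The log2 fold change in the Active against the Inactive group was 0.42 (standard error 0.216, unadjusted p = 0.0628, adjusted p = 0.479, edgeR).

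C1qb had 109, 148 and 301 in the Inactive group, 182, 210 and 256 in the Active group and 77.6, 162 and 282 in the Activity Reduction group. The Active libraries were close together (SD 29.1, against 70.7 in the Inactive and 65.4 in the Activity Reduction group), and the Activity Reduction library was higher than the Active one in 8 of 49 pairs. The log2 fold change in the Activity Reduction against the Active group was -0.45 (standard error 0.234, unadjusted p = 0.0673, adjusted p = 0.416, edgeR), and with the Alb division as a covariate it was -0.54 (unadjusted p = 0.0431, adjusted p = 0.447).

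C1qc had 122, 198 and 339 in the Inactive group, 158, 199 and 364 in the Active group and 69.2, 140 and 346 in the Activity Reduction group. The groups overlapped, and Activity Reduction replicate 4 was the lowest of the 21 libraries. Its log2 fold changes were 0.15, -0.12 and -0.27 in the Active against the Inactive, the Activity Reduction against the Inactive and the Activity Reduction against the Active group, with adjusted p-values of 0.718 or more (edgeR). The proportion of the chains stayed within narrower limits than the counts: the ratio of C1qa to C1qb counts, not scaled for length, lay between 0.849 and 1.57 over the 21 libraries with medians of 1.23, 1.20 and 1.37 in the Inactive, Active and Activity Reduction groups, and that of C1qc to C1qb between 0.799 and 1.85 with medians of 1.00, 0.950 and 1.20. The ranges of both ratios overlapped in all 3 groups. Exons of C1qc overlap a noncoding gene on the opposite strand, Gm69251, over 8.64% of the bases, and those of C1qb over 0.977%.

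Adgre1, which encodes the adhesion receptor F4/80, had 26.4, 44.1 and 77 in the Inactive group, 37.1, 52.7 and 89.1 in the Active group and 10.5, 47.3 and 67.5 in the Activity Reduction group. The groups overlapped over most of their range, and the log2 fold changes were 0.41 (standard error 0.327, unadjusted p = 0.219, adjusted p = 0.678) in the Active against the Inactive and -0.48 (standard error 0.329, unadjusted p = 0.154, adjusted p = 0.541, edgeR) in the Activity Reduction against the Active group.

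Of the ITAM pathway, Fcgr3 binds antibody and signals through the γ chain encoded by Fcer1g, and Tyrobp serves receptors such as TREM2. Fcer1g had 30.0, 40.9 and 61.4 in the Inactive group, 40.2, 55.6 and 67.8 in the Active group and 33.6, 52.7 and 62.0 in the Activity Reduction group. The groups overlapped, with an Active library above an Inactive one in 38 of 49 pairs, and the log2 fold change was 0.33 (standard error 0.178, unadjusted p = 0.0812, adjusted p = 0.513, edgeR). Tyrobp had 16.9, 35.6 and 88.5 in the Inactive group, 26.6, 48.3 and 60.1 in the Active group and 16.8, 43.4 and 76.6 in the Activity Reduction group, with the Active libraries inside the range of both other groups, and its log2 fold changes lay between -0.09 and 0.12 with adjusted p-values of 0.931 or more (edgeR).

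Fcgr3 had 27.0, 51.5 and 113 in the Inactive group, 30.9, 58.5 and 74.6 in the Active group and 10.5, 40.5 and 84.8 in the Activity Reduction group. The highest and lowest libraries were Inactive replicate 2 and Activity Reduction replicate 4, and the log2 fold changes were 0.07, -0.37 and -0.43 in the Active against the Inactive, the Activity Reduction against the Inactive and the Activity Reduction against the Active group (adjusted p = 0.965, 0.863 and 0.6, edgeR). Reads of Fcgr3 may be shared with a near copy, since 33.5% of the transcript matches Fcgr2b, the inhibitory Fc receptor, at up to 98.1% identity. Fcgr2b had log2 fold changes of 0.48, -0.01 and -0.50 in the same comparisons (unadjusted p = 0.074, 0.964 and 0.0684, edgeR).

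By the biological coefficient of variation, described below, Cd68 had the widest spread between mice of the 10. It had 42.5, 79.4 and 236 in the Inactive group and 59.8, 78.7 and 261 in the Active group. In the Activity Reduction group it had 33.7, 84.8 and 223. The Active group had 1 library, replicate 7, far above its other 6, and the groups overlapped over most of their range. The log2 fold change was -0.07 in the Active against the Inactive group (standard error 0.432, adjusted p = 0.968, edgeR) and -0.52 without Active replicate 7 (adjusted p = 0.688, edgeR), and it was 0.34 with the Alb division as a covariate, which turns the direction. Against the Active group, Activity Reduction had 0.12 (standard error 0.433, adjusted p = 0.935, edgeR), 0.57 without Active replicate 7, and -0.20 with that covariate. Aif1 had 1.78, 5.73 and 13.2 in the Inactive group, 5.32, 12.4 and 27.8 in the Active group and 0, 7.89 and 18.7 in the Activity Reduction group, where 1 library had no read (a count of 0 there allows up to 2.98 normalized counts). At this depth its log2 fold changes of 0.81 (standard error 0.488) and -0.61 (standard error 0.485) in the Active against the Inactive and the Activity Reduction against the Active group could not be told from 0 (adjusted p = 0.558 and 0.603, edgeR), and exons of Aif1 overlap the noncoding gene Gm17705 on the opposite strand over 16.6% of the bases.

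**Figure D2:**
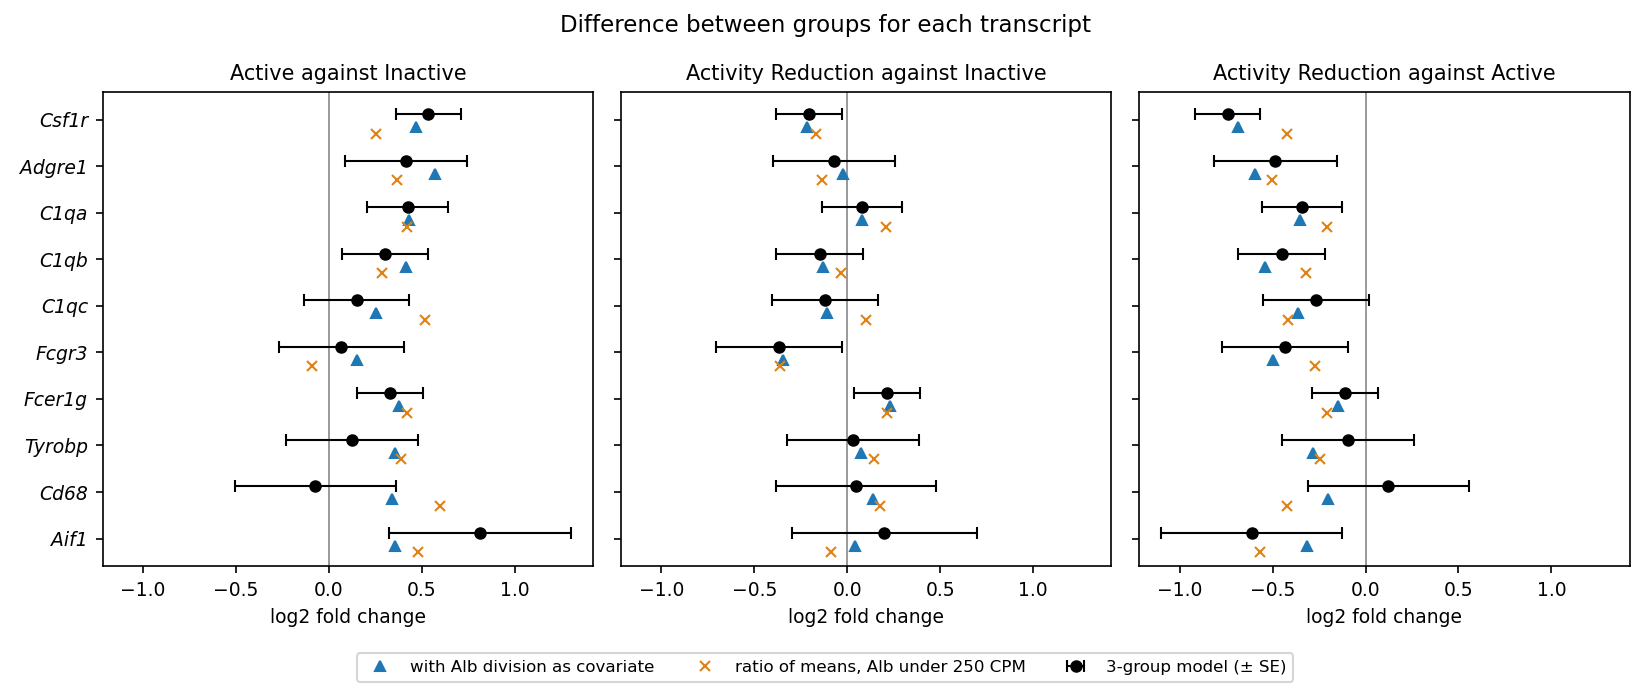
The log2 fold change (x axis) of each transcript (y axis) in the 3 comparisons, with circles and bars for the edgeR model of all 21 libraries ± standard error, triangles for the same model with the Alb division as a covariate and crosses for the log2 ratio of mean normalized counts in the 13 libraries with Alb under 250 CPM. The values lie mainly to the right of 0 in the Active against the Inactive group (median 0.31) and to the left in the Activity Reduction against the Active group (median -0.39), and Cd68 changes side with the covariate.

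Mice of the same group differed widely in these transcripts. The biological coefficient of variation (the spread between libraries beyond counting error) was 0.138 for the median gene tested, and all 10 lay above it, from 0.208 for Fcer1g to 0.549 for Cd68. The high and low libraries were largely shared. Inactive replicate 2 was among the 3 highest of the 21 libraries for 8 of the 10 transcripts, and Active replicate 7 and Activity Reduction replicate 3 were so for 6 each. Activity Reduction replicate 4 was among the 3 lowest for 8 of the 10 and Inactive replicate 4 for 5. Summed over the 10 genes, these libraries held 36.7, 36.2, 32.2, 9.71 and 15.7 CPM in that order, and Alb was under 250 CPM in all 5. Csf3r, which neutrophils express most and which serves here as a marker of them, was also highest within its group in Inactive replicate 2 (19.7 normalized counts), Active replicate 7 (29.0) and Activity Reduction replicate 3 (29.2). The neutrophil genes together were highest within their group in the same 3 libraries (summed 1.32, 1.54 and 1.06 CPM), although S100a8 and S100a9 each had 0 reads in Activity Reduction replicate 3. Mmp9, the most abundant of that list, shared only the first of them, Inactive replicate 2 (27.85 normalized counts). It was highest in Active replicate 2 (31.9) and Activity Reduction replicate 5 (27.5) within the other groups. The pan-leukocyte genes, which macrophages express too, were highest within the Inactive group in replicate 2 (summed 13.4 CPM), within the Active group in replicates 4 and 7 (10.9 CPM each) and within the Activity Reduction group in replicate 3 (9.57 CPM), and lowest of the 21 in Activity Reduction replicate 4 (4.37 CPM). The part of other blood cells in the high values was not tested.

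**Figure D3:**
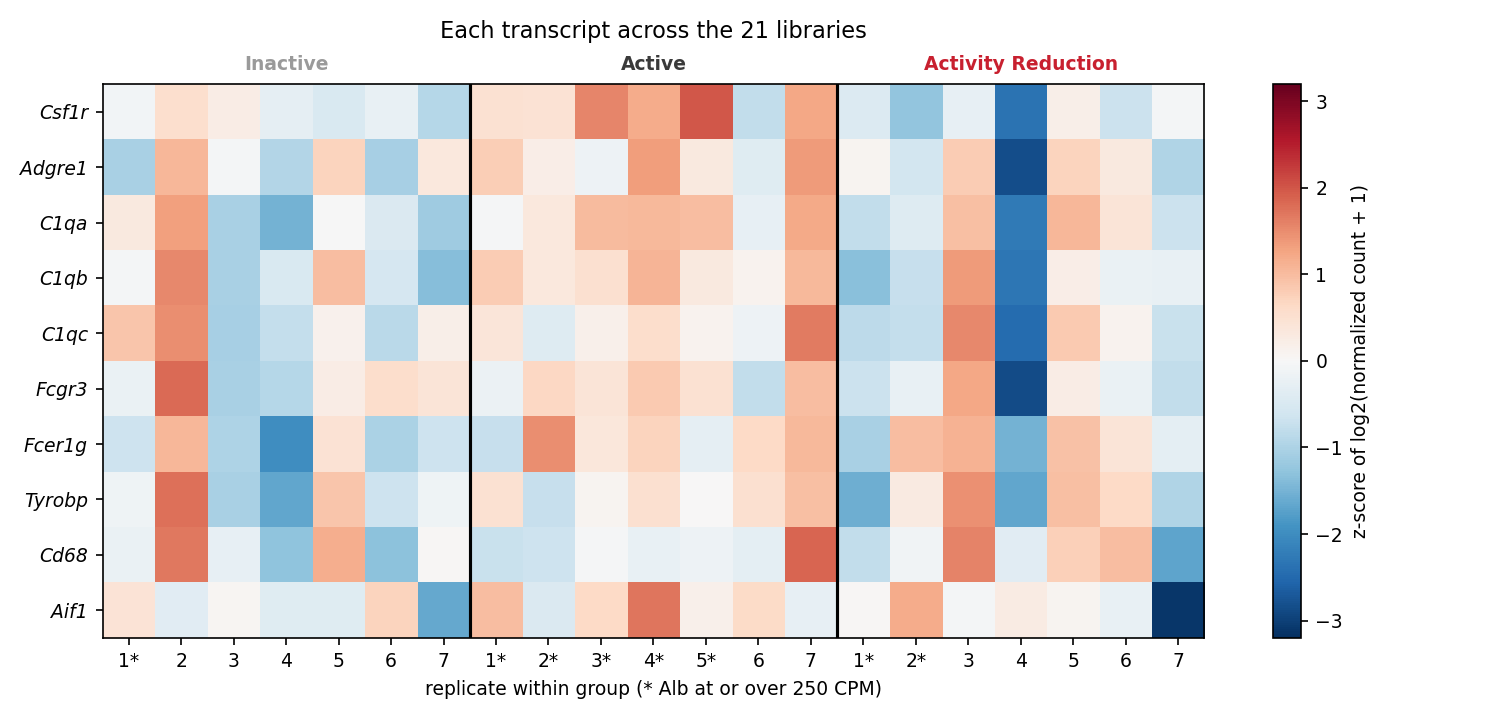
Z-scores of log2(normalized count + 1) over the 21 libraries (color) for each transcript (rows) in each replicate of the 3 groups (columns), with asterisks on the 8 libraries with Alb at or over 250 CPM. Inactive replicate 2, Active replicate 7 and Activity Reduction replicate 3 are high and Activity Reduction replicate 4 is low in most rows, and the Aif1 row does not share these columns.

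Correlation across libraries was computed for the 45 pairs of the 10 transcripts on log2(normalized count + 1) with group means removed, with p-values from 100000 permutations of libraries within groups and Benjamini-Hochberg adjustment over the 45 pairs. For 33 of the 45 pairs Pearson's r had an adjusted p-value under 0.05, and for 30 Spearman's rho did. The 28 pairs without Csf1r and Aif1 were all among both, with r between 0.576 and 0.869 and rho between 0.577 and 0.849. Their r remained between 0.409 and 0.804 when the 2 libraries farthest from the median of the first transcript were left out, and lay between 0.644 and 0.979 within the 13 libraries with Alb under 250 CPM. These 13 include all the high and low libraries named above. The closest pair was C1qa with C1qc (r = 0.869, permutation p = 2e-05; rho = 0.812, permutation p = 0.00017), 2 of the neighboring genes on chromosome 4. C1qa with Fcgr3 (r = 0.867, permutation p = 2e-05; rho = 0.748, permutation p = 0.00039), C1qc with Tyrobp (r = 0.847, permutation p = 1e-05, the smallest possible; rho = 0.849, permutation p = 2e-05) and Cd68 with Tyrobp (r = 0.821, permutation p = 5e-05; rho = 0.797, permutation p = 0.00013) came close to it from other chromosomes. All pairs share the same libraries and their size factors.

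Csf1r followed the others less closely. It had r = 0.69 with C1qa (permutation p = 0.0005, and rho = 0.66, permutation p = 0.00189) and r between 0.509 and 0.584 with Adgre1, C1qb, C1qc and Fcgr3. For the latter 4, r was between 0.23 and 0.329 without the 2 libraries farthest from the median of the first transcript of each pair (Adgre1 for its pair, Csf1r for the other 3). Leaving out the farthest libraries narrows the range of that transcript, so the lower values cannot show that these 4 r rested on such libraries. Among pairs without Csf1r, r of C1qb with Cd68 fell from 0.612 to 0.409, while that of C1qc with Cd68 rose from 0.736 to 0.774. Within the 13 libraries with Alb under 250 CPM r of Csf1r was 0.706, 0.675, 0.689 and 0.676 with Adgre1, C1qb, C1qc and Fcgr3. Of these 4, rho had an adjusted p-value under 0.05 only with C1qb (rho = 0.497, permutation p = 0.0249). With Cd68, Fcer1g and Tyrobp its r lay between 0.209 and 0.263 (permutation p between 0.257 and 0.373), and within the 13 libraries with Alb under 250 CPM it was 0.349, 0.55 and 0.463. The 9 pairs of Aif1 had r between -0.147 and 0.132, and 0 of the 9 had an adjusted p-value under 0.05, with a median of 8 reads per library behind its values.

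**Figure D4:**
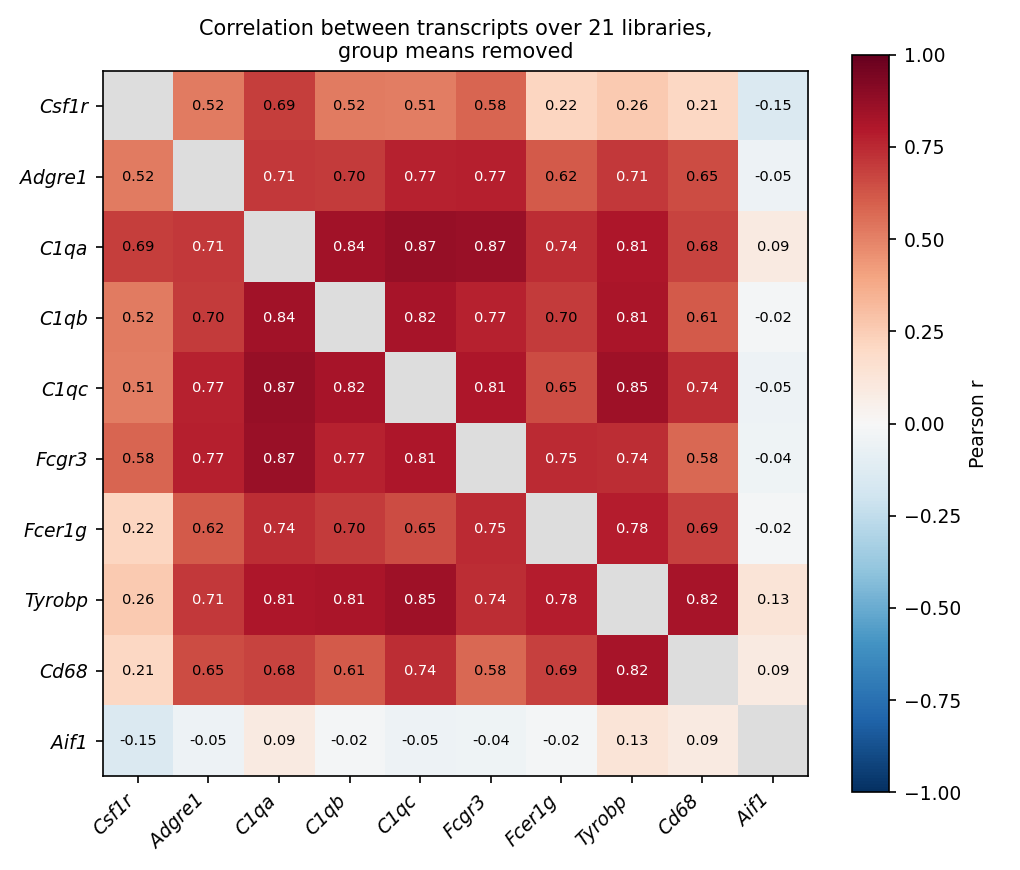
Pearson's r (color and number) between each pair of the 10 transcripts over the 21 libraries, after group means were removed from log2(normalized count + 1). The 28 pairs that leave out Csf1r and Aif1 lie between 0.576 and 0.869, Csf1r is weaker with Cd68, Fcer1g and Tyrobp (0.209 to 0.263), and Aif1 lies between -0.147 and 0.132.

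Among all genes tested, those whose pattern over the 21 libraries was most like the mean z-score of the 10 transcripts included Laptm5 (Pearson's r = 0.932), Lyz2 (0.907), Ptpre (0.897), Ctss (0.877), Siglec1 (0.86), Nckap1l (0.856), Lilrb4a (0.852), Cotl1 (0.846) and Atp6v0d2 (0.846). Within the 13 libraries with Alb under 250 CPM the genes named had r between 0.889 and 0.987. None of them passed the threshold between groups in edgeR. Of all genes tested, 0% passed it in the Active against the Inactive group. The share was 0.0124% in the Activity Reduction against the Inactive and 0% in the Activity Reduction against the Active group. With so few genes passing, this cannot show that the genes named were unchanged, and their DESeq2 calls are not given here. Laptm5 had log2 fold changes of 0.12, -0.09 and -0.21 and Lyz2, lysozyme, of 0.05, 0.03 and -0.02 in the Active against the Inactive, the Activity Reduction against the Inactive and the Activity Reduction against the Active group (adjusted p of 0.773 or more, edgeR). Ptpre had 0.37, -0.03 and -0.39 in the same order (unadjusted p = 0.0664, 0.881 and 0.0496, edgeR). In the last comparison Lilrb4a had -0.46 (unadjusted p = 0.183, edgeR), whereas Ctss and Atp6v0d2 lay above 0, at 0.12 and 0.24.

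Lists of related genes were read from the same edgeR model, where 0 list genes passed the threshold in any of the 3 comparisons and counts at an unadjusted p-value under 0.05 are given. At that p-value 6.18%, 4.19% and 6.89% of all genes tested were higher, and 4.69%, 3.54% and 6.44% lower. These shares are for the Active against the Inactive, the Activity Reduction against the Inactive and the Activity Reduction against the Active group. With the Alb division as a covariate 8.51%, 8.25% and 10.7% of all genes differed in the same order. As for Csf1r, the calls depended on the tool, and those of DESeq2 on the 3 groups, added after the data were seen, are given with each list that had any. Of 14 resident tissue macrophage genes 13 were tested, and 10 were higher in the Active than in the Inactive group (6.18% of all genes tested were) with a median log2 fold change of 0.67, and 10 were lower in the Activity Reduction than in the Active group (6.44%) with a median of -0.66. Folr2, a folate receptor of perivascular macrophages, had a log2 fold change of 1.11 in the Active against the Inactive group (adjusted p = 0.159), F13a1, coagulation factor XIII A, 0.67 (adjusted p = 0.284) and Cbr2, a carbonyl reductase, 0.46 (adjusted p = 0.162, edgeR), and F13a1 had -0.96 in the Activity Reduction against the Active group (adjusted p = 0.09, edgeR). With DESeq2, which gave 11 of the 14 an adjusted p-value, 3 passed the threshold in the Active against the Inactive group, Folr2 (adjusted p = 0.00598), Cbr2 (0.0211) and Stab1 (0.0416), and 4 in the Activity Reduction against the Active group, F13a1 (0.00276), Folr2 (0.0145), Cd209f (0.015) and Lyve1 (0.0421). Stab1, Cd209f and Lyve1 are named after their values were seen. Gas6, the most abundant of the list and not specific to macrophages, had -0.02. Between the Activity Reduction and Inactive groups 0 of the 13 differed, with a median of -0.05. With the Alb division as a covariate 8 and 9 of the 13 differed, with medians of 0.48 and -0.60. Their summed level had medians of 144, 174 and 142 CPM in the Inactive, Active and Activity Reduction groups, and of 144 CPM in the libraries with Alb under 250 CPM against 179 CPM in the others. A median of 75.5% of this sum came from 2 genes that do not mark macrophages in particular, Gas6 and Igfbp4, an insulin-like growth factor binding protein. Igfbp4, named after its values were seen, is 1 of the 10 in each direction and was highest within the Inactive and Active groups in replicate 1 of each, where Alb was over 250 CPM. Its log2 fold change in the Active against the Inactive group was 0.67 (unadjusted p = 0.00853, adjusted p = 0.33, edgeR) and 0.15 with the Alb division as a covariate (unadjusted p = 0.223). The other 12 genes had summed medians of 34.8, 45.4 and 34.3 CPM in the 3 groups, and of 34.8 CPM under 250 CPM of Alb against 42.0 CPM in the others. The difference between this list and the 10 general genes was not tested.

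Genes for what acts on or with the 10 were read next. Of the 11 tested ligands of the CSF1 receptor and myeloid transcription factors, 2 were higher in the Active than in the Inactive group, where 6.18% of all genes were, and 1 with the Alb division as a covariate. Csf1, the main ligand, had a log2 fold change of 0.20 (unadjusted p = 0.031, adjusted p = 0.418) and -0.29 in the Activity Reduction against the Active group (unadjusted p = 0.00312, adjusted p = 0.163), and Irf8, a factor of the monocyte lineage, had 0.21 (unadjusted p = 0.0271, adjusted p = 0.413, edgeR). Il34, the other ligand, had 0.27 in the Activity Reduction against the Active group (unadjusted p = 0.0496, adjusted p = 0.374). Spi1, which encodes PU.1, was lower in the Activity Reduction than in the Inactive group by the same measure, at -0.61 (unadjusted p = 0.0345, adjusted p = 0.637, edgeR). Its means were 33.9, 32.4 and 22.1 normalized counts in the 3 groups, Inactive first. The most abundant was Maf, at -0.03, 0.12 and 0.15, and the median of the list was 0.05 in the Active against the Inactive and -0.11 in the Activity Reduction against the Active group.

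Only 5 of 18 Fc receptors and other partners of the ITAM adaptors were abundant enough to be tested. Of these Cd300ld, an activating receptor of myeloid cells, differed, at 21.2 normalized counts in the Active, 9.85 in the Inactive and 6.64 in the Activity Reduction group, with log2 fold changes of 1.10 (unadjusted p = 0.00616, adjusted p = 0.311) and -1.65 (unadjusted p = 0.000255, adjusted p = 0.105, edgeR) in the Active against the Inactive and the Activity Reduction against the Active group, and in the latter its groups did not overlap. Trem2, a partner of Tyrobp, had means of 24.8, 16.02 and 33.5 in the Inactive, Active and Activity Reduction groups with log2 fold changes of -0.62 and 1.06 in the same 2 comparisons (adjusted p = 0.805 and 0.559, edgeR). Of the 9 tested kinases and phosphatases that act on ITAMs, Syk, the kinase that binds them, was higher in the Active than in the Inactive group (0.35, unadjusted p = 0.0107, adjusted p = 0.333) and Lyn, a Src-family kinase, lower in the Activity Reduction than in the Active group (-0.24, unadjusted p = 0.0349, adjusted p = 0.337, edgeR), while Plcg2 had 0.43 in the first comparison (unadjusted p = 0.0514). The medians of the 5 receptors were 0.48 and -0.50, and those of the 9 kinases and phosphatases 0.16 and -0.14. With the Alb division as a covariate the former were 0.75 and -0.48, and the latter 0.14 and 0.02, which turns the direction in the Activity Reduction against the Active group.

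Of the lysosome and phagosome genes, all 18 were tested, with medians of -0.06 in the Active against the Inactive and 0.04 in the Activity Reduction against the Active group. Of these 4 were lower in the Active than in the Inactive group and 3 higher in the Activity Reduction than in the Active group, while 1 was higher and 1 lower in the Activity Reduction than in the Inactive group. Cd63, a lysosomal membrane protein, had log2 fold changes of -0.20 and 0.11, Ctsd, cathepsin D, of -0.16 and 0.14, and Hexa, a hexosaminidase subunit, of -0.17 and 0.11 in the Active against the Inactive and the Activity Reduction against the Active group (adjusted p between 0.129 and 0.337, edgeR). Psap, the most abundant, had -0.07 and 0.02. Muscle fibers express these genes too, so that reads from fibers and from macrophages cannot be told apart.

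Of the other complement genes, many of which the liver makes, 34 were tested, and 12 were higher in the Active than in the Inactive group and 9 lower in the Activity Reduction than in the Active group, with medians of 0.39 and -0.40. With the Alb division as a covariate 1 and 4 differed and the medians were 0.07 and -0.09. Masp1, a protease of the lectin pathway, had 0.59 (unadjusted p = 0.00102, adjusted p = 0.198) in the Active against the Inactive group and 0.30 with the covariate (unadjusted p = 0.0222). C1s1, a protease of the C1 complex, had -0.47 (unadjusted p = 0.00236, adjusted p = 0.154) in the Activity Reduction against the Active group and -0.28 with the covariate (unadjusted p = 0.0228), and Cd93, once described as a C1q receptor and expressed by endothelium, had -0.32 and -0.25 (unadjusted p = 0.00165 and 0.0104, edgeR). With DESeq2, Masp1 passed the threshold in the Active against the Inactive group (adjusted p = 0.0336), and C1s1 (0.0325) and Cd93 (0.037) in the Activity Reduction against the Active group. Calr, a binding partner of C1q and the most abundant of the list, had -0.03 and 0.01. For the 10 general macrophage and C1q genes the medians with the covariate were 0.37 and -0.36, against 0.31 and -0.39 without it.

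Kupffer cells, the macrophages of the liver, also express C1q, so their markers were read beside the 10 genes. Of 6 markers 4 were tested, and 2 were higher in the Active than in the Inactive group, Clec4f at 1.29 (unadjusted p = 0.0432) and Cd5l at 1.22 (unadjusted p = 0.0481, edgeR), with a median of 1.25 that was 0.35 with the Alb division as a covariate. The other comparisons had 0 of the 4. Their summed level was between 0.488 and 1.83 CPM in the 13 libraries with Alb under 250 CPM and between 2.13 and 8.07 CPM in the other 8, without overlap, and Marco and Clec1b were too low to test. The sum of the 10 general genes was between 9.71 and 36.7 CPM in the 13 libraries (median 19.6) and between 16.4 and 30.7 CPM in the 8 (median 23.8), so that both the highest and the lowest values were in libraries with little Alb. Of the hepatocyte genes, 10 of 10 were tested and 2 were higher in the Active than in the Inactive group, Hp at 1.18 and Serpina3k at 1.46, with a median of 1.21 for the list and -0.10 with the covariate.

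**Figure D5:**
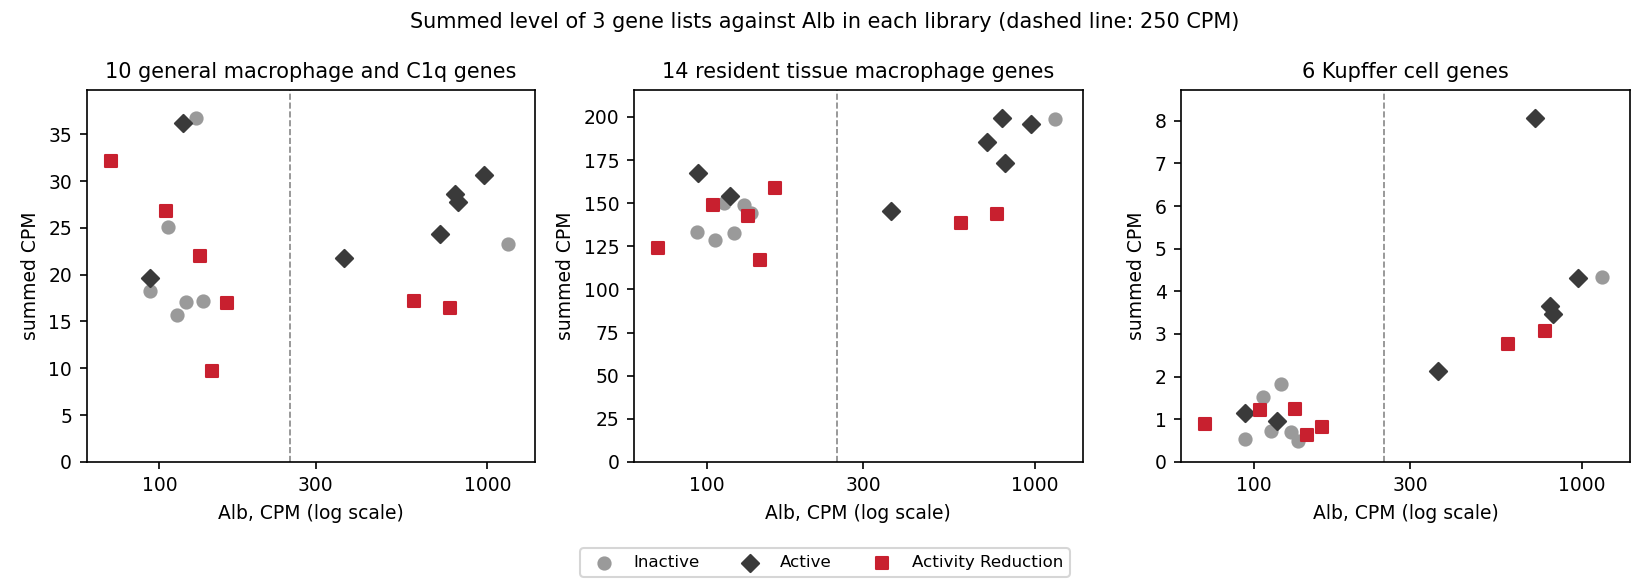
Summed CPM (y axis, from 0) of the 10 general macrophage and C1q genes, of 14 resident tissue macrophage genes and of 6 Kupffer cell genes against Alb (x axis, CPM, log scale) in the 21 libraries, with symbols for the 3 groups and a dashed line at 250 CPM. Kupffer cell genes separate on either side of the line (up to 1.83 CPM below it and from 2.13 CPM above it), and the general genes span 9.71 to 36.7 CPM below it and 16.4 to 30.7 CPM above it.

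Markers of other cells were read in the same way. Of the 7 pan-leukocyte genes, 1 was higher in the Active than in the Inactive group, the integrin Itgal at 0.66 (unadjusted p = 0.0439, adjusted p = 0.445, edgeR; 0 of the 7 with the Alb division as a covariate), and the medians were 0.09, -0.09 and -0.21 in the Active against the Inactive, the Activity Reduction against the Inactive and the Activity Reduction against the Active group. Ptprc, which encodes CD45, had -0.51 in the last of these (unadjusted p = 0.0639), Cd48 had -0.71 (unadjusted p = 0.0976), and Laptm5 was the most abundant. Of 5 tested monocyte genes, 3 were higher in the Active than in the Inactive group and 2 lower in the Activity Reduction than in the Active group, led by Fn1, Vcan and Ace, which stromal and endothelial cells also express, and with the Alb division as a covariate 0 of the 5 differed in either comparison. Ccr2, which defines inflammatory monocytes, had 0.05 and -0.22 (adjusted p = 0.968 and 0.789, edgeR). Of the 5 tested dendritic cell genes, Clec10a, which macrophages express as well, was higher in the Active than in the Inactive group (0.58, unadjusted p = 0.0105), 1 (Cd209a) was lower in the Activity Reduction than in the Inactive group (-0.98, unadjusted p = 0.0325) and both were lower in the Activity Reduction than in the Active group. With DESeq2, Clec10a passed the threshold in the latter (adjusted p = 0.0161). Zbtb46 was the most abundant of that list. Of the 2 tested neutrophil genes (Mmp9 and Csf3r), 2 tested T cell genes (Cd3e and Cd247) and 1 tested B cell gene (Ighm), 0 differed in any comparison.

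Fcer1g also serves mast cells, whose 6 markers were all tested. Of these 2 were higher in the Active than in the Inactive group, Tpsb2 at 0.72 (unadjusted p = 0.00235) and Cma1 at 0.68 (unadjusted p = 0.0314), and 3 were lower in the Activity Reduction than in the Active group, with Mcpt4 at -0.89 (unadjusted p = 0.00366, edgeR). Kit was the most abundant. Their summed level had medians of 4.09, 6.77 and 4.20 CPM in the Inactive, Active and Activity Reduction groups, and their part in the values of Fcer1g was not tested. Of 7 genes of fibro-adipogenic progenitors 3 were higher in the Active than in the Inactive group and 6 lower in the Activity Reduction than in the Active group, with Col1a1 at -0.68, Cd34 at -0.33 and Dcn, the most abundant, at -0.38. Of 7 endothelial genes 4 were higher and 3 lower in these comparisons, with Kdr at 0.29 and -0.42, Pecam1 at 0.14 and -0.17 and Cdh5 at 0.15 and -0.17. With DESeq2, Kdr passed the threshold in the Activity Reduction against the Active group (adjusted p = 0.0102). With the Alb division as a covariate 0 and 2 of the 7 endothelial genes differed in the same comparisons, as did 2 and 5 of the 7 genes of fibro-adipogenic progenitors and 1 and 2 of the 6 mast cell genes. Among 5 tested erythrocyte genes 1 (Alas2, at 0.50) was higher in the Active and 2 (Alas2 and Hba-a1) higher in the Activity Reduction than in the Inactive group, with Hbb-bs the most abundant and Hbb-bt at 0.28 and 0.23. Of 9 muscle fiber genes 1 (Myh4, at 0.19) was higher in the Active and 2 (Mylpf and Acta1, at 0.40 and 0.13) higher in the Activity Reduction than in the Inactive group. Of 6 adipocyte genes (with Lep, Plin1 and the most abundant, Fabp4) 0 differed in any comparison. Given the Alb division as a covariate, 1 adipocyte gene differed in the Activity Reduction against the Active group, 1 erythrocyte gene differed in the Active and 1 in the Activity Reduction against the Inactive group, and 2 and 3 muscle fiber genes did so. Of all genes, 10.7% differed in the first of these comparisons, and 8.51% and 8.25% in the Active and the Activity Reduction against the Inactive group.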

How the data were processed

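The deposited values are counts of reads on genes in 21 poly(A) libraries of mouse gastrocnemius. Per the labels and the study's methods, the authors used fastp to trim paired reads, STAR to align them (GRCm39) and featureCounts to count them; tool versions, annotation and strand setting are not given in the sources used here. Another deposited table, whose name says it is normalized, was equal to the first in all 857913 values and was only compared with it. Groups were taken from the sample labels, with 7 libraries each.

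Counts were tested in 1 edgeR 4.0.16 quasi-likelihood model of the 3 groups (R 4.3.3; filterByExpr, TMM), with Benjamini-Hochberg adjustment over 16129 genes and thresholds of adjusted p under 0.05 and log2 fold change over 0.25, and DESeq2 1.42.0, the authors' own tool, served as an alternative. The test was checked on simulated data. Normalized counts are counts divided by DESeq2 size factors, and CPM is relative to the library total. Other alternatives were RLE size factors, no filter, Alb (division at 250 CPM, or log2 CPM) as a covariate, only the libraries under 250 CPM, a replicate block, and leaving out each library. Exact permutation tests, correlations (100000 permutations) and ratios used Python 3.11.15 with scipy 1.17.1. Positions, promoters (250 bases) and canonical transcript lengths came from GRCm39 with GENCODE M39, and near-identical copies from blastn 2.17.0 (at least 90% identity over 20% of a transcript). With 38482455 to 59785132 counts per library, intervals and limits for counts of 0 cover counting error only.

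The 10 genes and all gene lists were chosen with earlier results of these data known, so counts over them are descriptions. All 10 are named; of each list, up to 3 tested genes with the smallest unadjusted p over the comparisons and the most abundant gene are named, besides markers that define a cell type. A few items that these rules would name are not reported here.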

Additional observations from a re-analysis of the deposited data

Results flagged for a closer look

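In 30 groups of 7 libraries (10 transcripts in 3 groups), 3 held a library far from the others by Dixon's test at the 95% level, where chance flags about 1 in 20 groups. Cd68 had 261 normalized counts in Active replicate 7, against a group median of 78.7, and C1qc had 364 in the same library, against a median of 199. Fcgr3 had 113 in Inactive replicate 2, against a median of 51.5.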

How the results depend on the processing

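The number of all genes differentially expressed in the Active against the Inactive, the Activity Reduction against the Inactive and the Activity Reduction against the Active group (0, 2 and 0 in edgeR) was 57, 23 and 117 with DESeq2 on the 3 groups and 75, 44 and 132 with DESeq2 on the 2 groups compared. With RLE size factors the latter 2 were 0 and 1, and in the Activity Reduction against the Inactive group the count was 1 with the Alb division and 3 with log2 Alb CPM as a covariate and 0 in the libraries with Alb under 250 CPM. Leaving out 1 library gave 0 to 1, 0 to 6 (6 without Active replicate 3, 4 without Activity Reduction replicate 3) and 0 to 9 (9 without Activity Reduction replicate 7, 8 without Active replicate 3).

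Csf1r, 1 of the 10 macrophage transcripts, passed the threshold in the Activity Reduction against the Active group with either DESeq2 fit (log2 fold change -0.74, adjusted p = 0.00658 and 0.0123 by DESeq2). At an unadjusted p under 0.05, DESeq2 gave 2 in the Active against the Inactive group (Csf1r and C1qa) and 2 in the Activity Reduction against the Active group (Csf1r and C1qb), either Alb covariate gave 2 in the latter (the same genes), and the libraries with Alb under 250 CPM gave 0 in both, with fewer samples. Of all genes, 1824 of 16129 passed in the latter with log2 Alb CPM as a covariate. With DESeq2 on the 2 groups compared, 2162 of 27684 genes passed in the former and 2278 of 27620 in the latter. Leaving out 1 library gave 1 to 4 of the 10 in the Active against the Inactive group, where 1351 of 16258 to 2329 of 16258 genes tested passed. It gave 1 to 3 in the Activity Reduction against the Active group (1713 of 16274 to 2334 of 16282 genes). In the Activity Reduction against the Inactive group it gave 0 (864 of 16274 to 1475 of 16267 genes).

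Of 80 single-transcript log2 fold changes per comparison under the other alternatives, 76, 78 and 75 kept direction and call, where transcripts to which DESeq2 gave no adjusted p are taken as not called. Cd68 turned to 0.34, 0.27 and 0.59 in the Active against the Inactive and to -0.20, -0.21 and -0.42 in the Activity Reduction against the Active group (Alb division, log2 Alb, libraries under 250 CPM). In the libraries under 250 CPM, Fcgr3 turned to -0.09 in the first comparison, and C1qc to 0.10 and Aif1 to -0.08 in the Activity Reduction against the Inactive group. The causes were not tested. Leaving out 1 library turned the sign of some values near 0. In the Active against the Inactive group the ranges were -0.02 to 0.33 (C1qc), -0.52 to 0.25 (Cd68), -0.05 to 0.36 (Fcgr3) and -0.01 to 0.44 (Tyrobp). In the Activity Reduction against the Inactive group they were -0.22 to 0.10 (Adgre1), -0.03 to 0.24 (C1qa), -0.35 to 0.02 (C1qb), -0.36 to 0.05 (C1qc), -0.23 to 0.37 (Cd68), -0.19 to 0.34 (Tyrobp) and -0.14 to 0.41 (Aif1), and in the Activity Reduction against the Active group -0.15 to 0.57 (Cd68) and -0.32 to 0.04 (Tyrobp).

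Replicate numbers recur in the 3 groups, but of 21 same-numbered pairs 7 correlated above 0.1 (range -0.222 to 0.471) and 3 of 21 libraries correlated best with their own number. The numbers were therefore not taken as a pairing in the main model. The libraries of replicate 1 all had Alb at or over 250 CPM, and their pairs had r of 0.326, 0.29 and 0.471. Active and Activity Reduction replicates 2, also at or over 250 CPM, had -0.007. The replicate block gave 0, 4 and 0 genes in the 3 comparisons and 2, 0 and 1 of the 10 transcripts at an unadjusted p under 0.05. Of the 16129 genes tested, 2028, 1230 and 2348 were under that unadjusted p with the block. Depth limits Aif1 most, at a median of 8 reads.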

Other observations

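The transcripts most like Csf1r alone over the 21 libraries, a list drawn up after its values were seen, were not those most like the 10 transcripts together. They were Cmtm6 (Pearson's r = 0.826), Anpep (0.812), Lrrc25 (0.782), F13a1 (0.78), Gfpt2 (0.778), Plce1 (0.766), Kctd12 (0.76), Cds2 (0.756), Pld4 (0.755) and Plat (0.75), and 0 of them were among those named for the whole group. Their log2 fold changes in the Active against the Inactive group were all above 0, from 0.05 (Cds2) to 0.67 (F13a1), and those in the Activity Reduction against the Active group all below 0, from -0.96 (F13a1) to -0.11 (Cds2). These values follow in part from the choice, since Csf1r itself differed between the same groups.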
